A study of Sus scrofa with 4 samples.

Results

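Skeletal muscle carries its own stem cells, the satellite cells, which lie on the surface of each fibre, divide, and then either fuse with the fibre or return to rest. The steps from a satellite cell to a fibre nucleus are driven by the myogenic regulatory factors (MRFs), a family of basic helix-loop-helix transcription factors: MYF5 and MYOD1 commit the cell to the muscle lineage, and MYOG (myogenin) starts its terminal differentiation. Myomaker, encoded by TMEM8C, is a membrane protein of myoblasts that is required for them to fuse, MEGF10 is a receptor of the satellite cell surface that takes part in the balance between division and differentiation, and FGFR4 is the fibroblast growth factor (FGF) receptor that is typical of differentiating myoblasts.

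The 6 genes MYF5, MYOD1, MYOG, TMEM8C, MEGF10 and FGFR4 were taken by name from the 22658 features of the files and were followed in longissimus dorsi (LD) muscle, the long muscle of the back. All libraries came from purebred castrated male pigs of the Laiwu breed, a Chinese breed known for fat-rich muscle, raised under similar housing and feeding and labelled wild type. There were 12 libraries, 3 from different pigs at each of 4 ages (60, 120, 240 and 400 d), so each pig was sampled once and the age differences are differences between pigs. The 6 genes lie at separate places of the Sscrofa10.2 assembly, none with an overlapping neighbour in the files: MYF5 (ENSSSCG00000000937) on chromosome 5 from 105700084 to 105703501, MYOD1 (ENSSSCG00000013375) on chromosome 2 from 44482283 to 44485063, MYOG (ENSSSCG00000015475) on chromosome 9 from 125243148 to 125246032, TMEM8C (ENSSSCG00000022891, MYMK in newer naming) on chromosome 1 from 307074678 to 307085718, MEGF10 (ENSSSCG00000014251) on chromosome 2 from 135437615 to 135682052, and FGFR4 (ENSSSCG00000014047) on chromosome 2 from 82414980 to 82427326. MEGF10 is on the plus strand and the other 5 genes are on the minus strand.

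Each library held between 9713813 and 13325327 counts (median 11201318), so that 3 counts, taken as the limit of detection, correspond to between 0.225 and 0.309 CPM (the count relative to its library's sum). All 6 genes passed the filter (an average over the 12 libraries of 10 counts or more), as did 12553 features in all, and none of them was at 0 in any library. The fewest counts were the 9 counts of MYF5 in a library labelled 240 d and the most were the 1707 counts of MYOG in a library labelled 60 d. Of the defining markers of muscle fibres, DES (desmin) and TNNC2 (fast troponin C) were high in every library, whereas ACTA1 (skeletal actin) was listed at 0 in 7 of the 12 libraries (3 labelled 60 d, 2 labelled 120 d and 2 labelled 400 d) and held between 662916 and 955237 counts in the other 5. With ACTA1 left out of the counts, an alternative added after its values were seen, the same number of the 6 genes passed in every test described here.

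The ages themselves need a caution. The mean FPKM published for 60 d matched the libraries with the label 400 d, and likewise 120 d matched the label 240 d, 240 d the label 60 d and 400 d the label 120 d. The median absolute log2 difference was at most 0.0199 in these pairings, against 0.500 to 1.59 in every other pairing. The published FPKM of single pigs at 120 d, over 531 genes, were in turn closest to the 3 libraries labelled 120 d (median absolute log2 differences of 0.332, 0.362 and 0.351, against 0.468, 0.598 and 0.483 for the next age). The paper places the genes followed here in expression profiles that it describes as similar to the course of muscle fat content. That content rose from 60 to 400 d, whereas the levels of these genes fell by label. The paper also reports that quantitative PCR of chosen genes correlated with its FPKM. By PCR it found EGR1 and FASN higher at 240 d than at 120 d. The PCR values were not compared with the libraries here. The ages below are those on the sample labels, and every direction between ages depends on them. The test over all 4 ages does not, since it asks only whether the 4 sets of 3 libraries differ.

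In FPKM, all 6 genes were lower in the libraries labelled 240 and 400 d than in those labelled 60 d, without overlap between libraries. Of all features tested, 17.1% (240 d) and 20.8% (400 d) were likewise lower than at 60 d without overlap. MYOD1 had the largest difference, a mean FPKM 5.56 times higher at 60 d than at 400 d, followed by TMEM8C at 4.37, MYF5 at 3.90, MYOG at 3.05, MEGF10 at 2.58 and FGFR4 at 2.0 times. FPKM is a fragment number corrected for transcript length and for how many fragments were mapped, and it is the only scale used here to compare genes with each other. In the edgeR quasi-likelihood test over the 4 ages, 5 of the 6 genes passed at a Benjamini-Hochberg adjusted p of 0.05, against 20.8% of all features tested. The 6 genes had been picked with earlier results of these data known, so that this count is no independent evidence of a change with age. The adjusted p values were 0.0016 for MYOD1, 0.013 for FGFR4, 0.018 for MEGF10, 0.021 for MYOG and 0.028 for TMEM8C, and MYF5 missed the threshold at 0.056. At an adjusted p of 0.01 only MYOD1 of the 6 passed, against 4.26% of all features. Leaving out 1 library at a time left between 4 and 6 genes past the threshold. MYOD1, MEGF10 and FGFR4 passed each time, MYOG was lost without 60 d library 1 (adjusted p = 0.063), TMEM8C was lost without any of 6 libraries of the ages 60, 240 and 400 d (0.051 to 0.074), and MYF5 passed without 120 d library 3 (0.044) or 240 d library 2 (0.047).

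**Figure D1:**
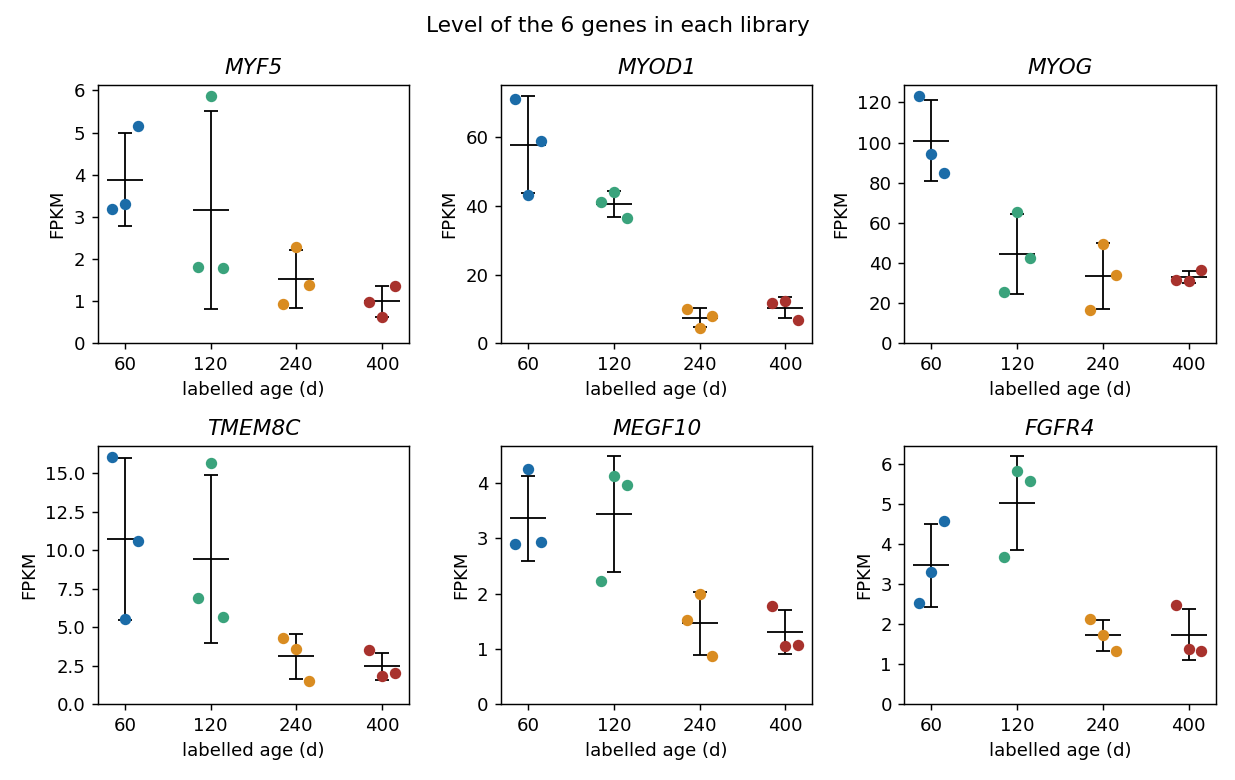
Level of each of the 6 genes (FPKM, axis from 0) in the 12 libraries by labelled age in days; each point is 1 library, the long horizontal mark is the mean of the 3 libraries and the bars are ± SD. In every panel the points at 240 and 400 d lie below all points at 60 d, and 1 library at 120 d is well above the other two for MYF5 and TMEM8C.

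MYF5 is the MRF that appears first in the embryo and stays on in resting satellite cells. Its level in the 3 libraries labelled 60 d was 3.20, 3.30 and 5.14 FPKM, in those labelled 120 d 1.82, 5.87 and 1.79, in those labelled 240 d 0.934, 2.28 and 1.38, and in those labelled 400 d 0.981, 0.637 and 1.37. The second 120 d library was higher than all others, and the other two at this age lay within the range of the 240 d libraries. Only the difference from 60 to 400 d passed the test, with a log2 change of -1.71 ± 0.52 (SE, n = 3 against 3, edgeR quasi-likelihood test, adjusted p = 0.033). It was lost without any of 5 libraries, 60 d libraries 2 and 3 and each of the 400 d libraries (adjusted p of 0.051 to 0.116). From 60 to 240 d the log2 change was -1.29 ± 0.51 (adjusted p = 0.11), and from 120 to 400 d it was -1.63 ± 0.52 (adjusted p = 0.054). With a mean of 2.39 FPKM MYF5 stood at the 30th percentile of the tested features, and its counts of 9 to 96 per library set a wide error.

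MYOD1, the factor that marks activated satellite cells and myoblasts, gave the firmest difference of the 6 genes. It was at 71.2, 43.2 and 59.0 FPKM in the libraries labelled 60 d and at 41.2, 44.1 and 36.6 in those labelled 120 d. Then it was at 9.96, 4.57 and 7.91 FPKM in the libraries labelled 240 d and at 11.8, 12.5 and 6.91 in those labelled 400 d. The 6 younger libraries therefore began at 36.6 FPKM, above the 12.5 FPKM at which the 6 older ones ended. How many of all features part in this way was not counted. MYOD1 fell from 60 to 240 d (log2 change -2.94 ± 0.32, adjusted p = 0.0028), from 60 to 400 d (-2.48 ± 0.31, adjusted p = 0.0010), from 120 to 240 d (-2.43 ± 0.31, adjusted p = 0.020) and from 120 to 400 d (-1.97 ± 0.30, adjusted p = 0.0069), all from the edgeR fit. Neither neighbours in age on the same side of this step, 60 and 120 d (log2 change -0.51 ± 0.29, adjusted p = 0.59) nor 240 and 400 d (0.47 ± 0.30, adjusted p = 0.68), differed beyond the spread between pigs. Of these calls only that from 120 to 240 d was lost with 1 library left out, 240 d library 3 (log2 change -2.50, adjusted p = 0.089).

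MYOG, the MRF that differentiating myoblasts switch on before fusion, was the most abundant of the 6 genes, at the 91st percentile of tested features with a mean of 53.0 FPKM. Its libraries labelled 60 d held 123.3, 94.5 and 84.7 FPKM, and all other 9 were lower. Those labelled 120 d held 25.8, 65.5 and 42.6 FPKM, those labelled 240 d 16.6, 49.5 and 34.2, and those labelled 400 d 31.4, 31.1 and 36.5. The last 3 ages overlapped one another. In FPKM the libraries of MYOG thus parted after 60 d and those of MYOD1 after 120 d, but this difference between the genes was not tested. Its log2 change was -1.15 ± 0.37 from 60 to 120 d, which did not pass the adjustment over all features (adjusted p = 0.38), -1.51 ± 0.37 from 60 to 240 d (adjusted p = 0.026) and -1.54 ± 0.37 from 60 to 400 d (adjusted p = 0.013). The call from 60 to 240 d was lost without 60 d library 1 (adjusted p = 0.066), 240 d library 1 (0.057) or 240 d library 3 (0.071), and that from 60 to 400 d without 400 d library 2 (0.054). From 120 to 240 d the log2 change was only -0.37 ± 0.36 (adjusted p = 0.53).

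The fourth MRF, MYF6, which mature fibres express, was measured beside them. Its FPKM ranged from 76.7 to 239.6 in the libraries labelled 60 d and from 76.0 to 122.3 in those labelled 120 d, then from 90.0 to 121.1 (240 d) and from 38.5 to 186.3 (400 d). These ranges overlapped at every pair of ages, and the test over the 4 ages did not pass (adjusted p = 0.49). Its log2 change from 60 to 400 d was -0.62 (adjusted p = 0.37), and whether this differed from the changes of the other MRFs was not tested.

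MYOD1 and MYOG were also set against each other within a library. From the youngest to the oldest label, the level of MYOD1 over that of MYOG had geometric means of 0.57, 0.97, 0.23 and 0.31. On the log2 scale the ratios were -0.79, -1.13 and -0.52 in the 60 d libraries and 0.67, -0.57 and -0.22 in the 120 d libraries. In the 240 d libraries they were -0.74, -3.43 and -2.11, and in the 400 d libraries -1.41, -1.32 and -2.40. MYOD1 exceeded MYOG in 1 library only, 120 d library 1, and the ratio was lowest in 240 d library 2, where MYOD1 had its lowest level and MYOG its highest level of that age. The ratio was not tested.

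**Figure D2:**
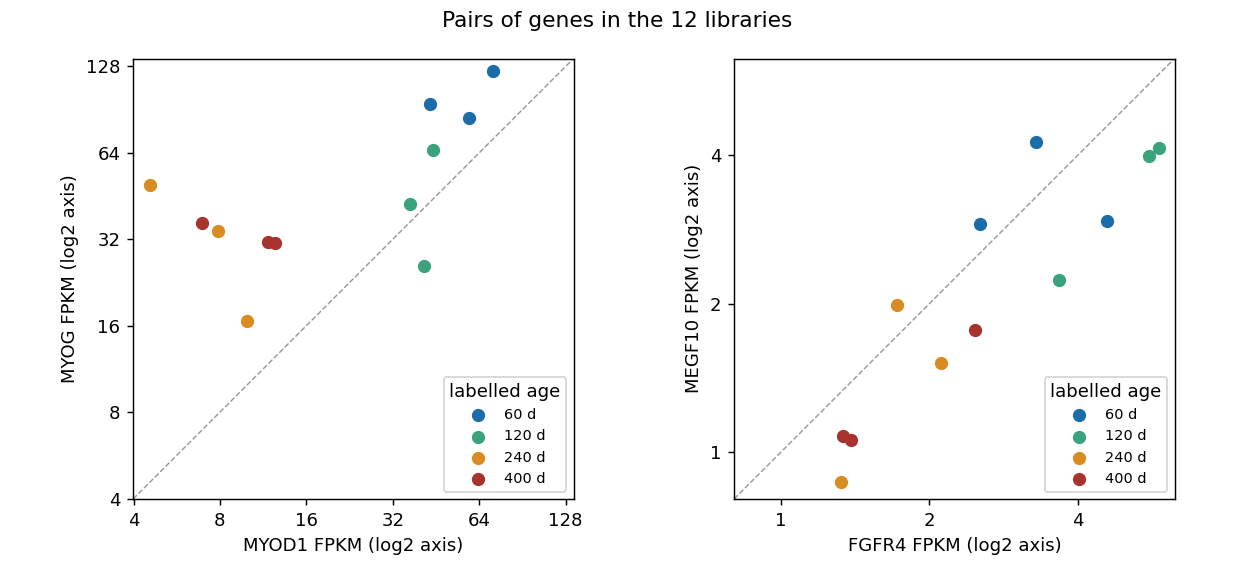
MYOG against MYOD1 (left) and MEGF10 against FGFR4 (right), FPKM on log2 axes, 1 point per library coloured by labelled age; the dashed line marks equal levels. On the left the 240 and 400 d libraries form a group below 12.5 FPKM of MYOD1 while their MYOG spans 16.6 to 49.5 FPKM; on the right both genes are low together in the 6 libraries labelled 240 and 400 d.

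TMEM8C, the fusion protein gene, was at 16.1, 5.52 and 10.6 FPKM in the libraries labelled 60 d and at 6.93, 15.7 and 5.64 FPKM in those labelled 120 d. It was at 4.29, 3.61 and 1.48 FPKM at 240 d and at 3.50, 1.85 and 2.02 FPKM at 400 d. In FPKM the 6 younger libraries were all above the 6 older ones. The gap between 4.29 and 5.52 FPKM was narrow, however, beside the 2.9-fold spread within 60 d. On the library-scaled counts that the tests used, 60 d library 2 (67 counts) lay slightly below 240 d library 1 (57 counts). The ages 60 and 240 d therefore overlapped for TMEM8C on that scale. TMEM8C fell from 60 to 400 d (log2 change -2.0 ± 0.49, edgeR adjusted p = 0.014) and from 120 to 400 d (-1.76 ± 0.49, adjusted p = 0.034). The changes from 60 to 240 d (-1.43 ± 0.48, adjusted p = 0.067) and from 120 to 240 d (-1.20 ± 0.48, adjusted p = 0.13) did not pass. Without 400 d library 2 the first call was lost (adjusted p = 0.061), and the second was lost without 120 d library 2 (log2 change -1.14, adjusted p = 0.16) or without any of the 400 d libraries (0.060 to 0.133).

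MEGF10, the satellite cell receptor, was at 2.90, 4.24 and 2.94 FPKM at 60 d and at 2.23, 4.12 and 3.97 FPKM at 120 d. At 240 d it was at 1.52, 1.99 and 0.871 FPKM and at 400 d at 1.77, 1.06 and 1.08 FPKM. As with TMEM8C in FPKM, the 6 younger libraries lay above the 6 older ones, here from 2.23 FPKM upward against 1.99 FPKM downward. The share of all features that part in this way was not counted. MEGF10 fell from 60 to 240 d (log2 change -1.19 ± 0.35, edgeR adjusted p = 0.045), from 60 to 400 d (-1.37 ± 0.35, adjusted p = 0.016) and from 120 to 400 d (-1.42 ± 0.35, adjusted p = 0.023). From 120 to 240 d the log2 change was -1.24 ± 0.35, with an adjusted p of 0.057. The call from 60 to 240 d was lost without any of 9 libraries (adjusted p of 0.052 to 0.136), those of 60 and 240 d, 120 d library 3 and 400 d libraries 2 and 3. That from 60 to 400 d was lost without 60 d library 2 (0.055), 400 d library 2 (0.067) or 400 d library 3 (0.056), and that from 120 to 400 d without 120 d library 2 (0.079), 120 d library 3 (0.057), 400 d library 2 (0.096) or 400 d library 3 (0.072).

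FGFR4 had its highest mean at 120 d, 5.01 ± 1.18 FPKM (SD, n = 3), against 3.47 ± 1.04 at 60 d. Its libraries held 2.53, 3.29 and 4.58 FPKM at 60 d and 3.66, 5.82 and 5.56 FPKM at 120 d, which overlapped (log2 change 0.43 ± 0.30, adjusted p = 0.68). They held 2.11, 1.72 and 1.33 FPKM at 240 d and 2.47, 1.39 and 1.34 FPKM at 400 d. FGFR4 fell from 120 to 240 d (log2 change -1.46 ± 0.31, edgeR adjusted p = 0.032), from 120 to 400 d (-1.45 ± 0.31, adjusted p = 0.016) and from 60 to 400 d (-1.02 ± 0.31, adjusted p = 0.035), while the change from 60 to 240 d missed the threshold (-1.03 ± 0.31, adjusted p = 0.052). The call from 120 to 240 d was lost without any of 4 libraries, 120 d and 240 d libraries 2 and 3 (0.066 to 0.112), that from 120 to 400 d without 120 d library 2 (0.061) or 400 d libraries 2 (0.073) or 3 (0.052), and that from 60 to 400 d without 60 d libraries 2 (0.066) or 3 (0.110) or 400 d libraries 2 (0.121) or 3 (0.110). The level of MYOG over that of FGFR4 had a geometric mean of 29.6 at 60 d and of 8.47 at 120 d, and of 18.0 and 19.8 at 240 and 400 d.

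The comparisons between 2 ages are set side by side next, and those that share an age share its libraries. Between 60 and 120 d none of the 6 genes passed, nor did any feature (0.0%, with 10.3% at an unadjusted p below 0.05 in edgeR), and of the 6 genes MYOG alone did not overlap (5.51% of features were lower without overlap). Between 240 and 400 d again no gene or feature passed (0.0%, with 8.92% at an unadjusted p below 0.05), and all 6 overlapped (9.09% of features were lower without overlap). From 60 to 400 d all 6 genes passed and were lower, against 13.3% of features lower and 24.6% called in either direction. FGFR4 fell out of this count with limma on log2(FPKM + 1) (adjusted p = 0.0503), with no count filter (0.0501) and with a fit of these ages alone (0.092), each of which left 5. From 60 to 240 d 3 of the 6 passed, MYOD1, MYOG and MEGF10, all lower, against 6.23% of features. From 120 to 400 d 4 of the 6 passed, all but MYF5 and MYOG, against 8.74% of features lower, and from 120 to 240 d MYOD1 and FGFR4 passed, against 3.13%. No gene of the 6 was called higher at a later labelled age in any pair. In FPKM and without overlap between libraries, 6 of 6 genes were lower from 60 to 240 d (17.1% of features), 6 from 60 to 400 d (20.8%), 4 from 120 to 240 d (18.1%) and 5 from 120 to 400 d (21.5%). The median log2 change of the 6 genes was -1.36, -1.62, -1.22 and -1.54 in these 4 comparisons, while that of all features was -0.03, -0.06, 0.02 and 0.01. With the ages as published, the libraries labelled 400 and 240 d come first. A change between the same 2 sets of libraries then keeps its size and turns in sign. It belongs to another pair of ages, however, so that size and calls of a named comparison differ. From 60 to 400 d as published, the log2 change of MYOG was 0.39 (edgeR adjusted p = 0.49).

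**Figure D3:**
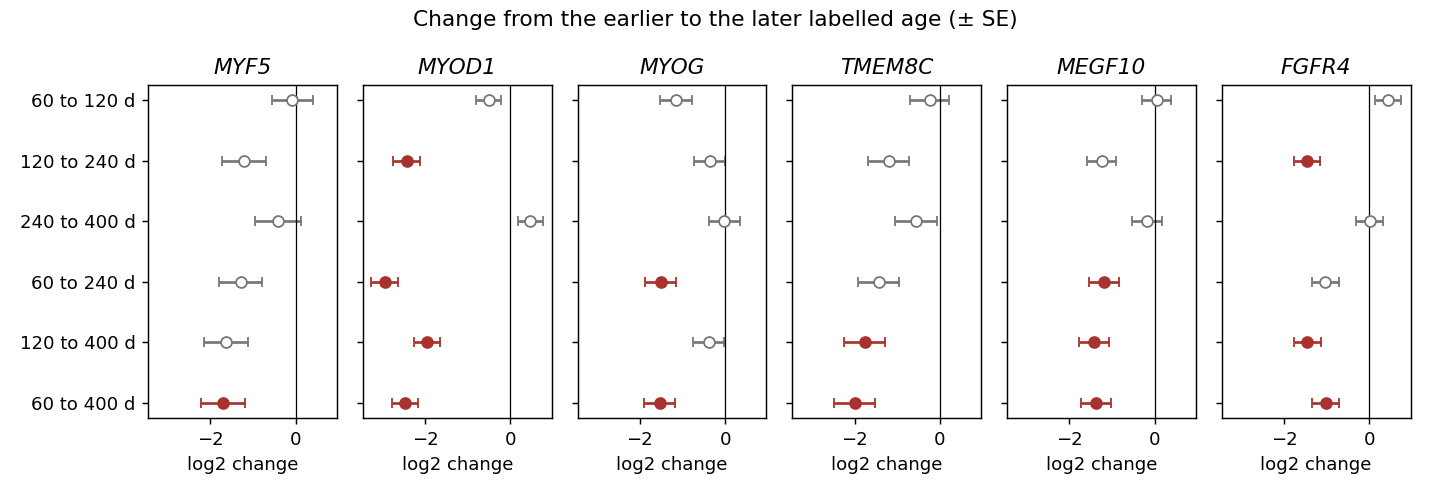
Log2 change from the earlier to the later labelled age in each pair of ages (rows), with ± SE bars from the edgeR fit, for the 6 genes (panels); filled red points have an adjusted p of at most 0.05 and open grey points do not. No point is filled for 60 to 120 d or 240 to 400 d, and all 6 are filled and below 0 for 60 to 400 d.

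The counts of called genes depended on single libraries, as did those of all features, whose share called in either direction is given in parentheses. From 60 to 400 d, 6 genes passed with all libraries (24.6%), 1 (MYOD1) without 400 d library 2 (10.8%), and 3 without 60 d library 2 (20.6%) or without 400 d library 3 (17.0%). From 60 to 240 d the count of 3 (12.1%) went to 1 without 240 d library 1 (6.4%) or 3 (4.54%). From 120 to 240 d the count of 2 (5.46%) went to 1 without 120 d library 2 (0.41%) or 3 (0.191%) or 240 d library 2 (0.0397%), and to 0 without 240 d library 3 (0.00797%, 1 feature). From 120 to 400 d the count of 4 (14.4%) went to 1 without 120 d library 2 (4.25%) or 400 d library 2 (1.86%) or 3 (6.82%). The log2 change itself kept its negative sign in every one of these omissions for all 6 genes from 60 or 120 d to 240 or 400 d. Exact permutation tests on the FPKM of 1 gene in 3 against 3 libraries cannot go below 0.10 and were not used for calls.

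One library stood out within its age. In 120 d library 2 each of the 6 genes was at its highest level of that age. MYF5 there was 3.27 times the lowest library of that age, MYOG 2.54 times and TMEM8C 2.78 times, whereas MYOD1 differed by only 1.20 times between the highest and the lowest library. In the same library ACTA1 had counts and the other two 120 d libraries had none, and the summed level of 5 leukocyte markers was 65.4 FPKM against 18.3 and 24.3. Whether these have a part in the higher levels was not tested. At the other ages no library was highest for more than 3 of the 6 genes, and 400 d library 2 was lowest for 4 of the 6.

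Over all 12 libraries the log2 levels of MEGF10 and FGFR4 had a Pearson correlation of 0.89, which was 0.68 after the mean of each age was removed. For MYF5 and MYOG the values were 0.79 and 0.70. For MYOD1, however, the sign turned once the age means were removed, against MYOG (0.62 and -0.43), MYF5 (0.66 and -0.40) and MEGF10 (0.78 and -0.28). TMEM8C and MYOD1 gave 0.83 and 0.34, TMEM8C and MEGF10 0.83 and 0.39, and MYOG and FGFR4, the lowest of the 15 pairs over the 12 libraries, 0.38 and -0.08. These are descriptions over 12 points, 3 per age, in which the genes of a library share its depth and cell makeup.

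Genes around the MRFs were read from lists of known partners, inhibitors and pathway members. Of 142 genes in 9 lists, 97 were matched by symbol and 83 were tested. Over the 4 ages 31 of these 83 passed (37.3%, against 20.8% of all features), and 19 without 400 d library 2 (11.1% of all features). From 60 to 400 d, 23 of the 83 were lower, against 13.3% of all features. Another 10 of the 83 were higher, near the 11.3% of all features that were. The lists had been chosen with earlier results of these data known. All 41 list and marker genes called in this comparison kept their direction with DESeq2 size factors, DESeq2, limma on FPKM or ACTA1 left out, and 35 of the 41 stayed called with limma at either pseudocount and 40 with ACTA1 left out.

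Among the partners with which MRFs act on their target genes, 5 of 11 tested were higher at 400 d than at 60 d and none was lower (11.3% of all features were higher and 13.3% lower). The other 6 did not pass, and 4 of them had negative log2 changes, from -0.17 (TCF3) to -0.46 (SMARCD3). SMARCD3, a subunit of chromatin remodelling complexes, was lower from 60 to 240 d (log2 change -0.79, edgeR adjusted p = 0.041). MEF2A, which binds muscle promoters together with the MRFs, was at 13.3 to 14.3 FPKM at 60 d and 35.3 to 58.1 FPKM at 400 d (log2 change 1.62, edgeR adjusted p = 0.0013). SIX4, a homeobox factor upstream of the MRFs, had a log2 change of 1.01 (adjusted p = 0.027), and KAT2B, an acetyltransferase that acts on MYOD1, one of 1.53 (adjusted p = 0.0009). KAT2B was at 23.3 to 33.1 FPKM in the libraries labelled 60 d and at 77.2 to 83.3 FPKM in those labelled 400 d.

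Inhibitors of the MRFs moved in both directions. Of 9 tested, 7 passed over the 4 ages (77.8%, against 20.8% of all features), and 4 were lower (44.4%, against 13.3%) and 2 higher (22.2%, against 11.3%) at 400 d than at 60 d. MSC (musculin), a repressor that competes with MYOD1 for its DNA sites, was at 1.78 to 2.75 FPKM at 60 d and 0.377 to 0.752 FPKM at 400 d (log2 change -2.14, edgeR adjusted p = 0.0032), and HDAC5, a deacetylase that represses MEF2, had a log2 change of -1.42 (adjusted p = 0.0060). HDAC4, of the same list, went the other way (log2 change 0.85, edgeR adjusted p = 0.013). BHLHE41, a basic helix-loop-helix repressor of MYOD1, went from 1.02 to 1.54 FPKM at 60 d to between 5.33 and 12.8 FPKM at 400 d (log2 change 3.06, adjusted p = 0.0009). MSTN (myostatin), a secreted inhibitor of muscle growth, had its highest mean at 120 d, with 4.89, 8.66 and 17.9 FPKM, and passed over the 4 ages (adjusted p = 0.021) but not from 60 to 400 d (log2 change 1.02, adjusted p = 0.14).

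Other markers of satellite cells were read next. Of 15 listed, 9 were matched, and PAX7 was not among them. Of 8 tested, 3 passed over the 4 ages (37.5%, against 20.8% of all features) and 2 were lower from 60 to 400 d (25%, against 13.3%), SDC3 (syndecan 3, log2 change -1.30, edgeR adjusted p = 0.0078) and TNFRSF12A, the TWEAK receptor (-3.12, adjusted p = 0.014). TNFRSF12A varied widely within an age, with 95.6, 440.7 and 834.7 FPKM at 60 d and 38.3, 305.8 and 189.4 FPKM at 240 d. CALCR, the calcitonin receptor of resting satellite cells, passed over the 4 ages (adjusted p = 0.026) and was at 1.29 to 1.36 FPKM at 120 d and 0.208 to 0.530 FPKM at 240 d. Its log2 change from 60 to 400 d was -0.84 (adjusted p = 0.15). VCAM1, an adhesion molecule of satellite cells, had a log2 change of -0.80 from 60 to 400 d (adjusted p = 0.19), and CDH15 (M-cadherin) one of -0.72 (adjusted p = 0.086). Those of MET (0.52, adjusted p = 0.21), NCAM1 (0.40, adjusted p = 0.57) and SPRY1 (0.022, adjusted p = 0.95) were positive and did not pass. Among 17 tested genes of myoblast fusion beside TMEM8C, 5 passed over the 4 ages (29.4%, against 20.8% of all features), and from 60 to 400 d 3 were lower (17.6%, against 13.3%) and 2 were higher (11.8%, against 11.3%), shares near those of all features. ADAM12, a membrane protease of fusing myoblasts, went from 0.619 to 0.836 FPKM at 60 d to between 0.037 and 0.199 at 400 d (log2 change -2.48, adjusted p = 0.0078) and the integrin gene ITGA9 had a log2 change of -1.83 (adjusted p = 0.0073), while CAPN3, a protease of the sarcomere, was higher (log2 change 0.996, adjusted p = 0.0049). FLOT1, a protein of membrane rafts, passed over the 4 ages (adjusted p = 0.021) with a log2 change of -0.33 from 60 to 400 d (adjusted p = 0.23).

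In the FGF list, 4 of 10 tested genes were lower from 60 to 400 d (13.3% of all features were) and none was higher. FGFR1, the FGF receptor of resting satellite cells, was at 13.6, 15.5 and 16.8 FPKM at 60 d and 8.87, 3.37 and 6.22 FPKM at 400 d (log2 change -1.45, edgeR adjusted p = 0.0033). SPRY2, a feedback inhibitor that FGF signals induce, was at 5.78 to 15.9 FPKM at 60 d and 1.64 to 2.95 FPKM at 400 d (log2 change -2.51, adjusted p = 0.0019), and SPRED2, another inhibitor of the same cascade, had a log2 change of -0.96 (adjusted p = 0.036). KLB, a co-receptor of endocrine FGFs, was lower too (-1.17, adjusted p = 0.025). The ligands tested, FGF1 and FGF9, had log2 changes of 0.82 (adjusted p = 0.20) and 0.55 (adjusted p = 0.54).

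Of 12 tested genes of the Notch pathway and the MEGF family, 3 passed over the 4 ages (25%, near the 20.8% of all features). From 60 to 400 d the same number was lower (25%, against 13.3%) and none was higher. These were DLL1, a Notch ligand made by muscle cells (log2 change -1.27, edgeR adjusted p = 0.021), DLL4, a ligand of vessels and fibres (-1.87, adjusted p = 0.020), and HES6, a factor that promotes myogenic differentiation (-2.02, adjusted p = 0.0033). HES6 was at 2.74 to 3.50 FPKM at 60 d and 0.498 to 0.784 FPKM at 400 d. The receptors NOTCH2 and NOTCH3 had log2 changes of -0.85 (adjusted p = 0.055) and 0.04 (adjusted p = 0.92), and JAG2, a ligand, had one of -0.56 (adjusted p = 0.10).

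Among 13 tested targets of the MRFs and genes of immature fibres, 4 were lower (30.8%, against 13.3% of all features) and 1 was higher (7.7%, against 11.3%) from 60 to 400 d. ACTC1, the cardiac actin of fetal and regenerating fibres, was at 263.7, 82.4 and 172.1 FPKM at 60 d and 6.97, 4.46 and 4.55 FPKM at 400 d (log2 change -5.01, edgeR adjusted p = 0.0037). TNNT2, the cardiac troponin T of immature fibres, was at 40.7 to 114.2 FPKM at 60 d and 2.42 to 5.15 FPKM at 400 d (log2 change -3.85, adjusted p = 0.0021). MYL4, the embryonic myosin light chain, was at 22.3 FPKM in 120 d library 2 and at or below 2.19 FPKM in the other 11. RB1, which holds differentiated nuclei out of the cell cycle, was higher (log2 change 0.78, adjusted p = 0.014). Uncalled changes from 60 to 400 d went both ways. They were positive for MYH8 (0.55, adjusted p = 0.30), TNNI1 (0.065, adjusted p = 0.91), NCAM1 (0.40, adjusted p = 0.57) and DES, and negative for MYL4, CHRNA1, CHRNE and MUSK. Of 12 cell cycle genes listed, 7 were matched and 3 had enough counts to be tested. All 3 were lower from 60 to 400 d (against 13.3% of all features), namely TOP2A (log2 change -2.51, adjusted p = 0.0057), CCNB1 (-2.43, adjusted p = 0.041) and MCM2 (-1.86, adjusted p = 0.0074), each below 2.6 FPKM in every library.

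**Figure D4:**
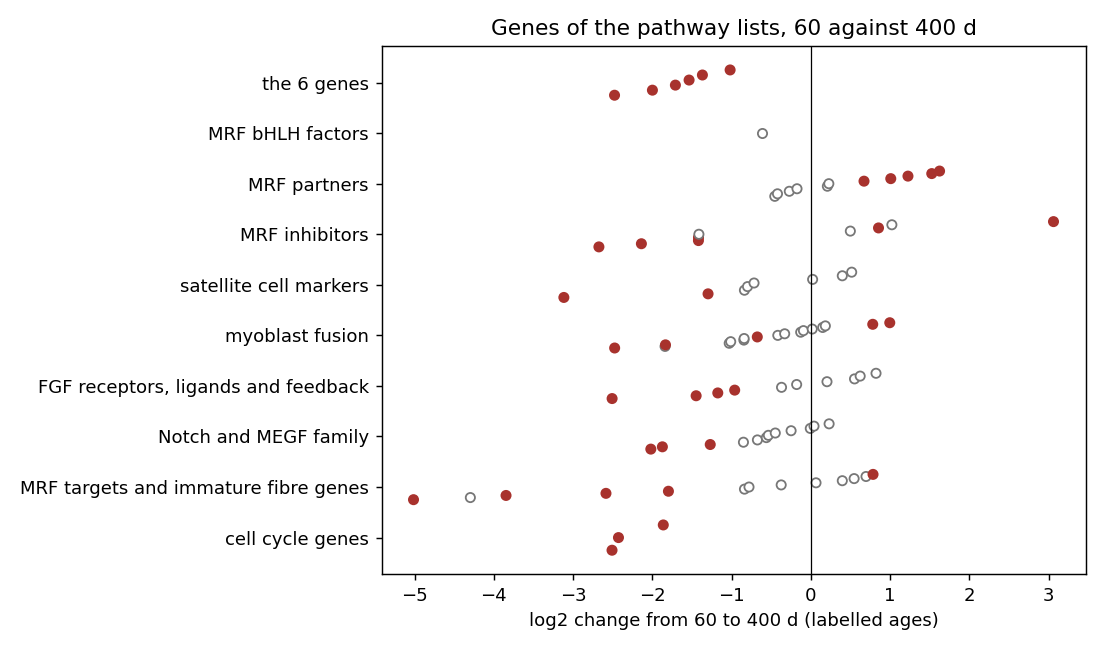
Log2 change from 60 to 400 d (labelled ages) of the 6 genes and of each tested gene in the 9 pathway lists, 1 point per gene spread vertically within its row; filled red points have an edgeR adjusted p of at most 0.05. The 6 genes are all filled and below 0, the filled MRF partners are all above 0, and the filled genes of the FGF, Notch and cell cycle rows are all below 0.

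In whole muscle, fewer cells of a type and less RNA per cell cannot be told apart, and markers of cells other than muscle moved with the labelled ages too. Sums over a marker list are given as the range of the 3 libraries, from the youngest to the oldest label. Called counts refer to 60 to 400 d, where 13.3% of all features were lower. The summed level of 5 connective tissue markers was 633 to 2077, 965 to 1392, 492 to 721 and 213 to 499 FPKM, and 2 of the 5 (40%), COL1A2 and COL3A1, were lower from 60 to 400 d. For 4 endothelial markers the sums were 58.1 to 116.7, 60.1 to 84.5, 51.5 to 75.7 and 31.0 to 52.1 FPKM, with 3 of the 4 lower (75%). For 5 leukocyte markers they were 18.3 to 26.9, 18.3 to 65.4, 10.4 to 19.5 and 4.85 to 12.5 FPKM. Of these 5 only CD14 was lower (20%, near the share of all features). For 2 Schwann cell markers they were 39.2 to 51.8, 18.4 to 24.9, 8.73 to 26.7 and 5.98 to 22.6 FPKM, with both lower. The 2 fat cell markers matched, PLIN1 and CIDEC, summed to 6.91 to 39.7, 7.66 to 17.8, 18.6 to 31.0 and 3.53 to 26.2 FPKM, and neither passed. Of the defining myofibre markers DES had a log2 change of 0.70 from 60 to 400 d (adjusted p = 0.093) and TNNC2 one of -0.41 (adjusted p = 0.34). The part of the cell makeup in the levels of the 6 genes was not tested.

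The genes whose levels over the 12 libraries followed each of the 6 most closely were sought among 6313 named features averaging 50 counts or more, by the Pearson correlation of log2 levels. For MYOD1 they were SRRT (r = 0.97), PRXL2B (0.96) and ENHO (0.95). ENHO, which encodes the secreted peptide adropin, had mean levels of 251.0, 150.0, 18.2 and 23.6 FPKM from the youngest to the oldest label. For MYOG the closest were AP2S1 (0.92), FAM3C (0.89) and TUT1 (0.89), and for MYF5 they were GJA1 (0.97), the gap junction protein connexin 43, PABPC1 (0.97) and SLC15A3 (0.95). TMEM8C was followed by SEPTIN5 (0.97), MGMT (0.95) and the imprinted gene MEST (0.94). MEGF10 was followed by PRKAR1A (0.94), PARM1 (0.93) and ARMC5 (0.91), and FGFR4 by TANC2 (0.95), NAAA (0.93) and the interferon-induced MX2 (0.93). These correlations are the 3 highest of 6313 for each gene, and their 12 points fall into 4 ages of 3 libraries.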

How the data were processed

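LD muscle RNA of 12 pigs was sequenced (paired ends, 125 cycles). The authors deposited whole-number counts per gene and FPKM from Cufflinks, after mapping with TopHat2 to Sscrofa10.2 per the study's methods, while the submitters' processing notes list Bowtie 0.12.2, Cufflinks and mm8, a mouse build. The 12 columns of normalized counts were not used. Symbols came from a name table that matched 11472 of 22657 identifiers, and list genes without a match were not analysed here. A list gene that the naming rule picked is not reported here by name, and it stays in the counts of its list. The 6 genes and the lists were chosen with earlier results of these data known.

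Counts were tested in 1 fit over all 12 libraries with edgeR 4.0.16 (R 4.3.3), TMM normalization, a filter on the average count over the libraries (10 or more, 12553 features) and the quasi-likelihood test, over the 4 ages and between each of 6 pairs, with Benjamini-Hochberg adjustment over all features at 0.05. The SE is the absolute log2 change over the square root of F. The step was tested on simulated data. Correlations used log2(FPKM + 0.1). The text names the 6 genes, per list up to 4 genes with the lowest adjusted p over the ages, and per gene the 3 most correlated, and other list genes were named after their values were seen. Alternatives were DESeq2 1.42.0, its size factors, limma 3.58.1 on log2 FPKM, other count filters, a fit per pair, a stricter threshold, each library left out and the published ages. p-values set a difference against the spread between pigs of the same age, which 1 fit estimates over all 4 ages together and partly from other features. Python 3.11.15, pandas 2.3.3, numpy 2.4.6, scipy 1.17.1 and matplotlib 3.10.9 were used.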

Additional observations from a re-analysis of the deposited data

How the results depend on the processing

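No paired analysis was possible because the library columns carry no replicate number that ties pigs of different ages, and each pig was sampled once. For single genes (the adjusted p over the ages and the 6 log2 changes), the alternatives other than leaving out a library gave 336 values with the same direction and side of the threshold, 22 that lost and 9 that gained significance, and 34 that reversed. Leaving out 1 library gave 427, 49, 11 and 17.

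At an adjusted p of 0.01 with at least a 2-fold change, 1 of the 6 genes (MYOD1) was called over the ages (where no fold applies), 1 each from 60 to 240 d, 60 to 400 d and 120 to 400 d, 0 from 120 to 240 d (0.0% of features), and 9 genes of the pathway lists. From 60 to 400 d the count of 6 became 5 with limma on log2(FPKM + 1), no count filter, a filter of 50 counts (MYF5 untested) or a fit per pair, and 4 with the published ages. From 60 to 240 d the count of 3 became 5 with DESeq2 and 1 with a fit per pair. With the published ages it became 6, and that from 120 to 400 d became 2. With 1 library left out the counts ranged from 4 to 6 over the ages, 1 to 4 (60 to 240 d), 1 to 6 (60 to 400 d), 0 to 3 (120 to 240 d) and 1 to 5 (120 to 400 d), and that of the pathway lists from 19 to 31. Those of all features ranged from 1396 to 2891, 276 to 1586, 1368 to 3150, 1 to 1406 and 234 to 2394 in the same order of comparisons. Of all features, 2606 were called over the ages, 4100 with DESeq2 and 535 at the stricter threshold. From 60 to 240 d 1520 were called, against 2373 (DESeq2), 238 (fit per pair) and 118 (stricter). From 60 to 400 d 3093 were called, against 1825 (fit per pair) and 840 (stricter), from 120 to 240 d 686, against 1783 (DESeq2), 447 (limma) and 0 (stricter), and from 120 to 400 d 1812, against 159 (stricter). From 60 to 120 d DESeq2 called 73 features and from 240 to 400 d 66. The cause of these shifts was not tested.

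With the published ages, under which each named pair compares other libraries, the following log2 changes reversed. Those from 60 to 120 d, 60 to 240 d, 60 to 400 d, 120 to 240 d and 120 to 400 d became 0.42, 1.71, 1.63, 1.29 and 1.21 for MYF5, 0.022, 1.54, 0.39, 1.51 and 0.37 for MYOG, 0.56, 2.0, 1.76, 1.43 and 1.20 for TMEM8C, and -0.013, 1.02, 1.45, 1.03 and 1.46 for FGFR4. Those from 60 to 240 d, 60 to 400 d, 120 to 240 d, 120 to 400 d and 240 to 400 d became 2.48, 1.97, 2.94, 2.43 and -0.51 for MYOD1 and 1.37, 1.42, 1.19, 1.24 and 0.051 for MEGF10. From 240 to 400 d limma with a pseudocount of 0.1 or 1 gave 0.11 and 0.11 for MYOG and -0.020 and -0.0075 for FGFR4. Leaving out 1 library turned the sign only of uncalled changes, from 60 to 120 d for MYF5 (-0.73 to 0.22), TMEM8C (-0.84 to 0.069) and MEGF10 (-0.073 to 0.34), and from 240 to 400 d for MYF5 (-0.77 to 0.046), MYOG (-0.34 to 0.37), MEGF10 (-0.46 to 0.11) and FGFR4 (-0.36 to 0.19). MYF5 could not be tested with a filter of 50 counts. Depth limits MYF5 most, with as few as 9 counts in a library.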
